A study of Mus musculus with 12 samples.

Results

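Retinoid transport and metabolism in epididymal white adipose tissue (eWAT) was described here through 8 genes, Rbp4, Stra6, Rbp7, Aldh1a1, Adh1, Rdh10, Dhrs3 and Crabp2, which were selected by symbol from the 23474 genes of the RNA-seq table. All 8 were found in it under 1 mouse Ensembl identifier each, such as ENSMUSG00000024990 for Rbp4 and ENSMUSG00000028996 for Rbp7. The libraries came from male C57BL/6J mice that were fed from 5 weeks of age for 12 weeks and were 17 weeks old. The normal diet group (ND) received no high-fat diet, the HFD group received the high-fat diet alone, the GT group received the high-fat diet with an ethanol extract of green tea at 0.25% (w/w), and the TJ group received the high-fat diet with 3% (w/w) Taeeumjowuitang, an herbal formula. Each group held 10 mice and gave 3 libraries, 12 in all, and the 3 mice of the HFD and TJ groups were picked at random. Expression was given as FPKM, the fragments of a gene scaled to the length of its transcript and to the depth of the library.

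Vitamin A travels in the blood as retinol bound to RBP4, a carrier secreted by liver and adipocytes, and STRA6 is a membrane receptor that takes retinol from it. Inside cells retinol is held by small binding proteins of the RBP family, oxidised reversibly to retinal by alcohol and short-chain dehydrogenases, and oxidised irreversibly to retinoic acid by the ALDH1A enzymes. CRABP2 carries retinoic acid to its nuclear receptors, and adipose tissue is, after the liver, a main store of retinyl esters.

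Rbp4 lies on the minus strand at chr19:38116629-38125281 (GRCm38, GENCODE release 21) with 6 exons, and Rbp7 on the minus strand at chr4:149449687-149454978 with 4 exons. RefSeq promoter entries (GRCm38.p6) were at hand for 6 of the 8 genes, and those of Rdh10 and Crabp2 were missing. The 250 bases upstream of the annotated start are shown for Rbp4 at chr19:38124812-38125061 and for Rbp7 at chr4:149454969-149455218, both on the minus strand and written 5′ to 3′, because these were the only members that passed the main test in any of the 4 comparisons described here. The capitals mark TATAAA, which was searched on both strands together with CCAAT, with AGGTCA, the core motif of nuclear receptor sites, and with its variant GGGTCA.
Rbp4: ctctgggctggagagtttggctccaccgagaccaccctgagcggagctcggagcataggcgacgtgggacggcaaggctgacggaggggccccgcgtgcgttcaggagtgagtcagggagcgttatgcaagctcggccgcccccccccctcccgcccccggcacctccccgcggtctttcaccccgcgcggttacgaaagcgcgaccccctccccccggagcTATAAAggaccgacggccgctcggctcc
Rbp7: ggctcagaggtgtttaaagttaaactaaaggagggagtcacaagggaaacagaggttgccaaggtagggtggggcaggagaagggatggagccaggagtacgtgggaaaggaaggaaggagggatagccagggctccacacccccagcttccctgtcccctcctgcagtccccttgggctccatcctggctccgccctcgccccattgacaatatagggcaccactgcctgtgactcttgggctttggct
The Rbp4 stretch held TATAAA at positions -28 to -23 from the start, a match found in 12.4% of 32817 promoters of the same length, and had a GC content of 70.8%. The Rbp7 stretch, with a GC content of 58.4%, held neither TATAAA nor CCAAT, a motif that 33.8% of the promoters held. AGGTCA was in 14.0% of the promoters and in none of the members' entries. RefSeq gives Rbp4 a further start upstream, at chr19 position 38125321, and the start shown is the one nearer to a GENCODE transcript start (17 against 73 bases away). The 250 bases before that further start had a GC content of 40.8%, lacked TATAAA, and held CCAAT on the reverse strand at -162 to -158. They also held GGGTCA, a variant of the nuclear receptor motif, on the reverse strand at -53 to -48, as did 1 Aldh1a1 entry at -49 to -44, a match found in 11.6% of the promoters.

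Libraries were checked with marker genes before the members were compared. In ND replicate 1 the 10 testis germ cell markers summed to 99413 FPKM and the 12 epididymis markers to 17685 FPKM, while its 9 adipocyte markers summed to 6934 FPKM against 17214 to 67979 FPKM in the other libraries. HFD replicate 2 had 1279 FPKM of epididymis markers, mostly from Crisp1 (1172 FPKM) and Adam7 (103 FPKM). Of the 12 epididymis markers, 6 were at 0 in every HFD library, among them Lcn5 and Lcn8. ND replicate 3 and HFD replicate 1 had 3084 and 2106 FPKM of germ cell markers. All other libraries had at most 12.1 FPKM of epididymis and 170 FPKM of germ cell markers. Fold changes between the HFD and ND groups are therefore given with and without ND replicate 1. Macrophage markers (10 genes) summed to 68.1 to 565 FPKM in the ND group, 3824 to 5388 in the HFD group, 1402 to 3422 in the GT group and 750 to 2562 in the TJ group. The depth was estimated from the FPKM steps as about 9.80M fragments in the shallowest library and 19.8M in the deepest.

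**Figure D1:**
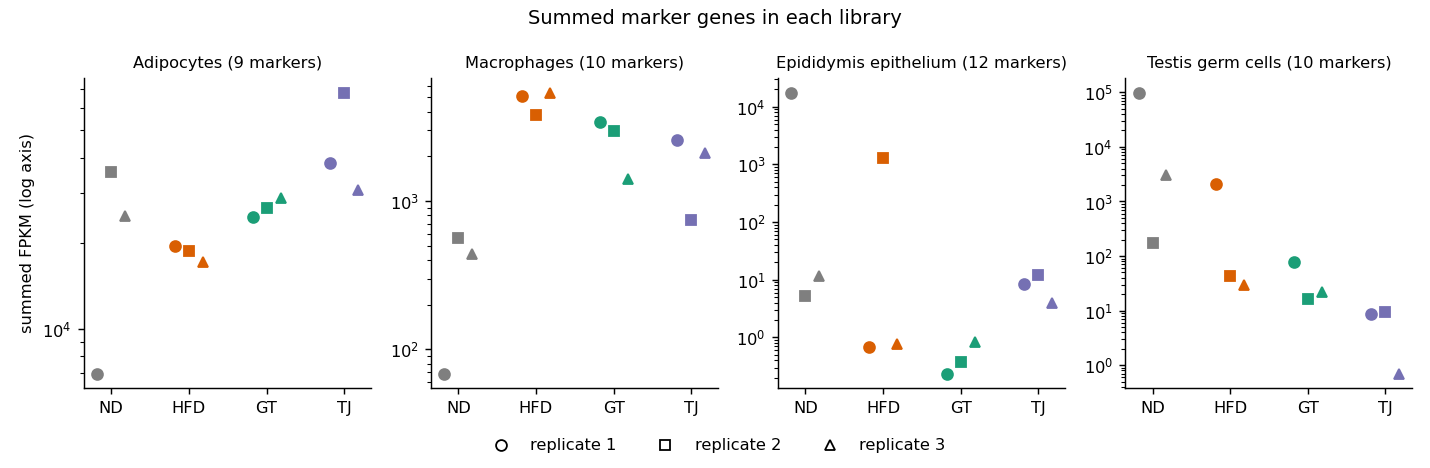
Summed FPKM of marker genes of 4 sources in each of the 12 libraries, on log axes, with 1 point per library and the shape giving the replicate number. ND replicate 1 is lowest in adipocyte and macrophage markers and highest in epididymis (17685 FPKM) and germ cell (99413 FPKM) markers, and the HFD libraries have the highest macrophage sums.

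Rbp4 had the highest mean of the members in the ND, GT and TJ groups. Its FPKM was 71.1, 568 and 387 in ND replicates 1 to 3, 177, 172 and 181 in the HFD group, 292, 318 and 362 in the GT group, and 490, 772 and 387 in the TJ group. The HFD libraries were nearly equal, every GT library lay above every HFD library, and every TJ library lay above every GT library. The means were 342 ± 251 (SD, n = 3) in the ND group, 176 ± 4.45 in the HFD group, 324 ± 35.6 in the GT group and 550 ± 199 in the TJ group. In this order of means, TJ, ND, GT and HFD, only the neighbours GT and HFD had ranges that did not overlap.

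Rbp7, a cellular retinol-binding protein of adipose tissue, followed the same order of means. It had 39.1, 144 and 94.9 FPKM in ND replicates 1 to 3, 56.5, 38.6 and 22.4 in the HFD group, 69.2, 80.1 and 118 in the GT group, and 170, 416 and 162 in the TJ group. TJ replicate 2, the library with the highest summed adipocyte markers, was the highest for both binding proteins. The group means of Rbp7 were 92.6 ± 52.3 FPKM in the ND group, 39.2 ± 17.1 in the HFD group, 89.2 ± 25.8 in the GT group and 249 ± 144 in the TJ group (SD, n = 3). The TJ and ND ranges were apart, as were those of GT and HFD, while ND and GT overlapped.

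**Figure D2:**
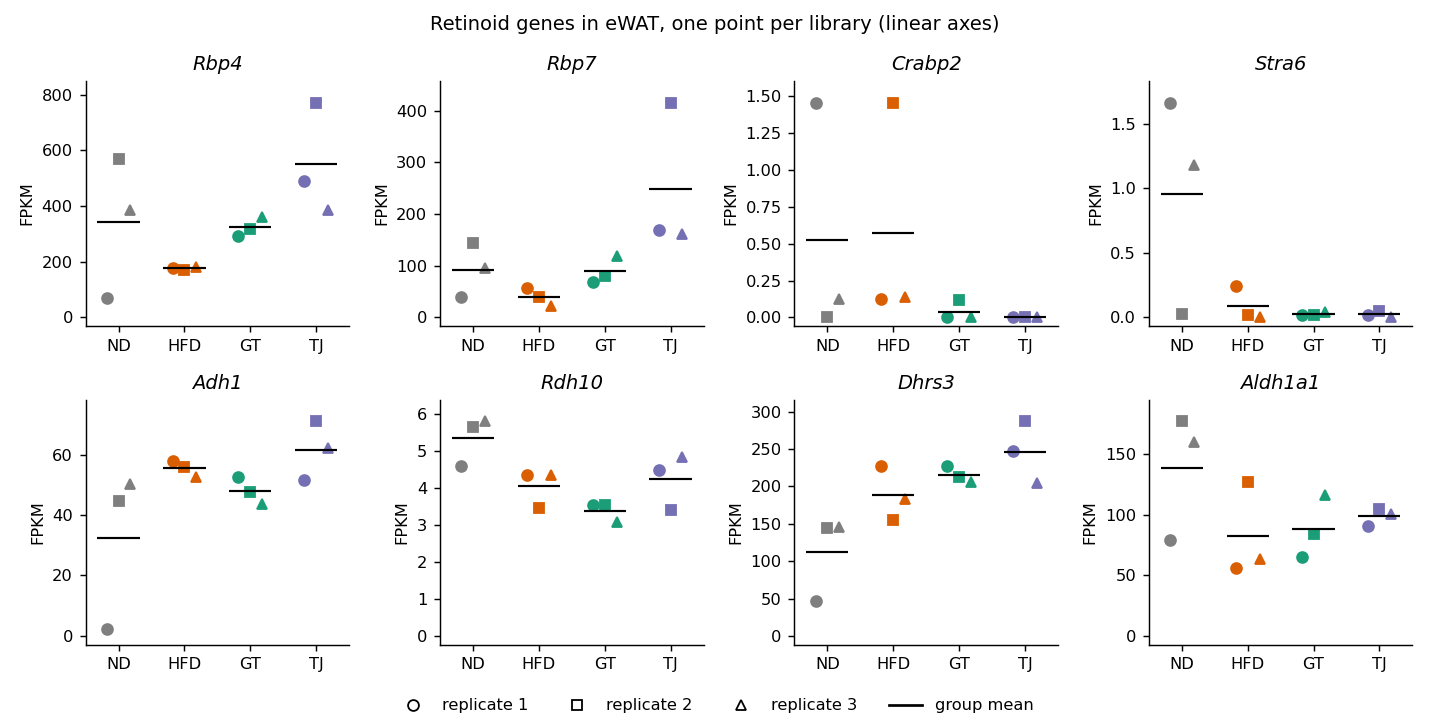
FPKM of the 8 members by group on linear axes that differ between panels, with 1 point per library (the shape gives the replicate number) and a line at the group mean. Rbp4 and Rbp7 are lowest in the HFD group on average and highest in the TJ group, with TJ replicate 2 on top, while Stra6 and Crabp2 stay under 2 FPKM in every library.

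The question of the TJ and HFD comparison was what the formula changed in eWAT when given with the high-fat diet. In 6 of the 8 members the mean over the 6 libraries reached 1 FPKM and they were tested with limma, and Stra6 and Crabp2 did not reach it. The 2 retinol-binding proteins Rbp4 and Rbp7 rose, and the 4 enzymes did not pass the test. Rbp7 and Rbp4 also had the shortest transcripts of the 6, 619 and 937 bases against 1492 to 3587 for the enzymes. The FPKM of all genes summed to more in every TJ library (574984 to 725245) than in any HFD library (527904 to 552100). A fit with the transcript length trend removed was among the alternatives. A gene was called at an adjusted p under 0.05 (limma, Benjamini-Hochberg over 12807 genes) and a fold change of at least 1.5, and 18.5% of all genes tested were called, 7.41% higher and 11.1% lower. An unadjusted p under 0.05 was found in 2 of the 6 and in 41.4% of all genes. All 6 tested members had a positive log2 fold change with a median of 0.37, while the median of all genes tested was -0.14. The groups did not overlap in 2 of the 6 members and in 51.5% of all genes tested.

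The mean of Rbp4 was 3.12-fold higher with TJ than with the HFD alone, with a log2 fold change of log2(FPKM + 1) of 1.57 (SE 0.25, adjusted p = 0.0232, limma). For Rbp7 the mean was 6.36-fold higher, with a log2 fold change of 2.59 (SE 0.45, adjusted p = 0.0247, limma). Both genes were higher in 3 of 3 TJ libraries than in any HFD library, and the exact permutation test gave its smallest two-sided p for 3 libraries against 3, 0.1, for each. With TJ replicate 2 left out the log2 fold changes were 1.30 and 2.15, and both genes were still called. With no filter on low values Rbp7 had an adjusted p of 0.0528 (limma) and was not called, and with all 12 libraries in the fit neither was called. The calls were lost when HFD replicate 1, 2 or 3 or TJ replicate 1 was left out, with adjusted p (limma) of 0.0537 to 0.113 for Rbp4 and 0.0512 to 0.113 for Rbp7. In each of these 4 fits no gene of the table was called, while 3732 to 4735 had an unadjusted p under 0.05.

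Adipocyte markers moved in the same direction as the 2 binding proteins. Of the 9 markers, 8 were higher in the TJ group and 7 were called, and their sum was 30743 to 67979 FPKM in the TJ group against 17214 to 19620 in the HFD group, with none of them at 0. All 10 macrophage markers were lower in the TJ group, 7 of them called, and all 7 endothelial markers were higher, 3 of them called. Of 8 progenitor and fibroblast markers 7 were lower and 3 of them called, with sums of 792 to 1038 FPKM (TJ) and 1033 to 1071 FPKM (HFD). The part of these cell types in the changes of Rbp4 and Rbp7 was not tested. In bulk tissue a change in the number of cells of a type and a change of RNA per cell cannot be told apart.

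Of the enzymes, Dhrs3 (chr4:144892827-144928209) and Adh1 (chr3:138260991-138290698) had their lowest mean in the ND group. For Dhrs3 the means were 246 ± 41.5 FPKM in TJ, 215 ± 10.8 in GT, 189 ± 36.5 in HFD and 112 ± 56.9 in ND (SD, n = 3), and for Adh1 they were 61.7 ± 9.72 in TJ, 55.5 ± 2.74 in HFD, 47.9 ± 4.56 in GT and 32.4 ± 26.2 in ND. Aldh1a1 (chr19:20492715-20643465) and Rdh10 (chr1:16105774-16133734) had their highest mean in the ND group. For Aldh1a1 the means were 139 ± 52.2 FPKM in ND, 98.8 ± 7.57 in TJ, 88.4 ± 25.9 in GT and 82.2 ± 39.1 in HFD, and for Rdh10 they were 5.36 in ND, 4.24 in TJ, 4.05 in HFD and 3.38 in GT. All 4 genes lie on the plus strand, and among neighbours in these orders only HFD and ND for Dhrs3 had ranges that did not overlap.

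The enzymes that act on retinol and retinal gave smaller values in this comparison. Dhrs3, a short-chain dehydrogenase that reduces retinal back to retinol, had 228, 155 and 183 FPKM in the HFD libraries and 247, 287 and 204 in the TJ libraries, with a log2 fold change of 0.39 (SE 0.20, adjusted p = 0.180, limma). Its ranges overlapped, with TJ replicate 3 below HFD replicate 1. Adh1, a cytosolic alcohol dehydrogenase that oxidises retinol and ethanol, had 58.0, 56.0 and 52.6 FPKM in the HFD libraries and 51.7, 71.1 and 62.2 in the TJ libraries. Its TJ replicate 1 was below all HFD libraries, and the log2 fold change was 0.14 (adjusted p = 0.498, limma).

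Rdh10, the microsomal dehydrogenase that makes retinal from retinol, was expressed at a low and even level. It had 4.35, 3.45 and 4.34 FPKM in the HFD libraries and 4.48, 3.42 and 4.84 in the TJ libraries, so the lowest and the highest of these libraries both received TJ. The log2 fold change was 0.05 (adjusted p = 0.832, limma). Aldh1a1, which oxidises retinal to retinoic acid, had 56.1, 127 and 63.4 FPKM in the HFD libraries and 90.5, 105 and 101 in the TJ libraries. HFD replicate 2 lay above all TJ libraries, and the log2 fold change was 0.36 (SE 0.30, adjusted p = 0.379, limma). Without HFD replicate 2, whose epididymis marker sum came mostly from Crisp1, it was 0.72 (SE 0.16, adjusted p = 0.0884, limma). Without HFD replicate 1 it was 0.13 (adjusted p = 0.750, limma). Of the 50-base stretches in the Aldh1a1 transcript, 6.54% also occur in its close relative Aldh1a7, so that reads from these stretches could have been shared between the genes.

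**Figure D3:**
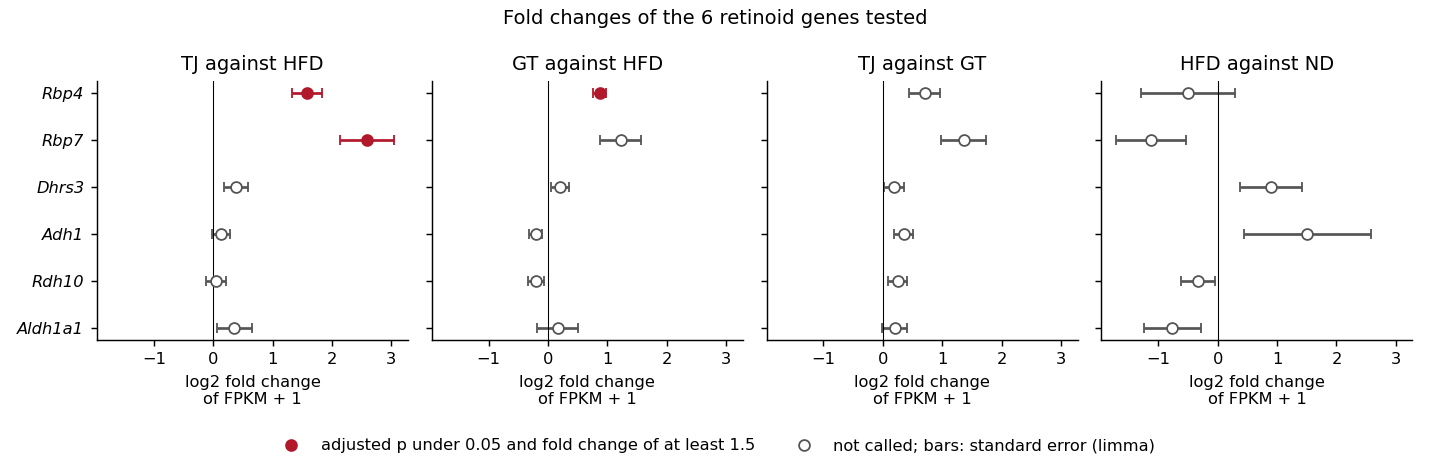
Log2 fold changes of FPKM + 1 (horizontal axis) of the 6 members tested, in 4 comparisons, with standard errors from limma as bars and filled points for called genes. Rbp4 and Rbp7 are called in TJ against HFD (1.57 and 2.59) and Rbp4 in GT against HFD (0.87), while the other members lie nearer to 0 in all but HFD against ND, where the bars are wide.

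The GT and HFD comparison addressed what the green tea extract changed on the same diet, and it used the same 3 HFD libraries. Among the 6 members tested, 1 was called, Rbp4, against 3.63% of 12766 genes tested (1.83% higher and 1.81% lower). An unadjusted p under 0.05 was found in 2 of the 6 and in 29.3% of all genes. Rbp4 was 1.84-fold higher in the GT group, with a log2 fold change of 0.87 (SE 0.11, adjusted p = 0.0311, limma). The call was lost without HFD replicate 1, 2 or 3 or without GT replicate 2 or 3 (adjusted p = 0.0511 to 0.177, limma), and with the replicate number as a block (adjusted p = 0.0955, limma). It was also lost with no filter on low values and with all 12 libraries in the fit. It was kept without GT replicate 1, at an adjusted p of 0.0284 (limma).

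Rbp7 had a mean 2.28-fold higher in the GT group than in the HFD group and ranges that did not overlap, but its log2 fold change of 1.22 (SE 0.34) had an adjusted p of 0.0808 (limma). It passed with array weights (1.38, adjusted p = 0.00359, limma) and with the transcript length trend removed (1.48, adjusted p = 0.0372, limma), in which 12.4% and 4.9% of all genes tested were called. The ranges were apart in 2 of the 6 members, Rbp4 and Rbp7, and in 36.7% of all genes tested, and the median log2 fold change was 0.18 for the 6 members and -0.12 for all genes. Adipocyte markers were higher in 9 of 9 genes, 4 of them called, with sums of 24784 to 28940 FPKM in the GT group. Macrophage markers were lower in 10 of 10 genes, of which 0 were called (limma, with 10 at an unadjusted p under 0.05). Progenitor and fibroblast markers were lower in 7 of 8 genes, 3 of them called, with sums of 769 to 844 FPKM in the GT libraries and 1033 to 1071 in the HFD libraries. The part of these cells in the Rbp4 value was not tested.

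The 4 enzymes were not called in the GT group. Dhrs3 had 227, 213 and 205 FPKM there, between the lowest and the highest HFD library (log2 fold change 0.20, adjusted p = 0.388, limma). Adh1 had 52.7, 47.6 and 43.6 FPKM and Rdh10 had 3.54, 3.53 and 3.07 FPKM, with log2 fold changes of -0.21 and -0.20 (adjusted p = 0.220 and 0.347, limma), of which that of Rdh10 turned to 0.020 with quantile normalization. For both, at least 1 GT library lay within the range of the HFD group. Aldh1a1 had 64.9, 83.9 and 116 FPKM, all within the HFD range, and a log2 fold change of 0.16 (adjusted p = 0.771, limma).

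Between the TJ and GT groups 0 of the 6 members were called (limma, 2 at an unadjusted p under 0.05), against 0.148% of 12187 genes tested (0.139% higher and 0.00821% lower) and 24.6% at an unadjusted p under 0.05. The 2 with the small unadjusted p were Rbp4 and Rbp7, whose ranges did not overlap, as in 34.4% of all genes tested. The TJ mean of Rbp4 was 1.70 times the GT mean (log2 fold change 0.71, SE 0.26, adjusted p = 0.170, limma), and that of Rbp7 was 2.79 times the GT mean (1.37, SE 0.38, adjusted p = 0.126, limma). Both passed with array weights (0.62 and 1.05, adjusted p = 7.7e-05 and 3.8e-05, limma), a setting in which 8 of the other retinoid genes and 13.6% of all genes tested were called as well. Without TJ replicate 2 they were 0.43 and 0.93 (adjusted p = 0.216 and 0.0941, limma), and with the transcript length trend removed 0.26 and 0.78 (adjusted p = 0.445 and 0.220, limma). The difference between the effects of the 2 additives is this comparison itself, so a larger effect of TJ than of GT on either gene did not pass the test used here. All 6 members had a positive log2 fold change, with a median of 0.30 against -0.03 for all genes. However, Dhrs3 turned to -0.011 with quantile normalization and Aldh1a1 to -0.0021 without GT replicate 1. The other 4 had log2 fold changes of 0.18 for Dhrs3, 0.20 for Aldh1a1, 0.25 for Rdh10 and 0.35 for Adh1, with adjusted p of 0.225 to 0.562 (limma).

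The HFD and ND comparison addressed what the high-fat diet alone changed. With all libraries 0 of the 6 members were called (limma, 0 at an unadjusted p under 0.05), against 1.77% of 14430 genes tested (1.73% higher and 0.0416% lower; 11.6% at an unadjusted p under 0.05). The ranges did not overlap in 3 members, Adh1, Dhrs3 and Rdh10, and in 26.4% of all genes. The median log2 fold change was -0.42 for the 6 members and 0.07 for all genes. ND replicate 1, the library with germ cell and epididymis markers, was the lowest of the ND group in each of the 6, and for Adh1 it had 2.33 FPKM against 44.6 and 50.3 in the other ND libraries.

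A p that misses the threshold does not show that the groups did not differ. Without ND replicate 1, 15.4% of all genes tested were called, and Rbp4 was called lower in the HFD group, with a log2 fold change of -1.40 (SE 0.18, adjusted p = 0.00898, limma) and an ND mean of 477 ± 128 FPKM (SD, n = 2). In this fit 4.34% of all genes tested were called lower, and so were 6 of the 9 adipocyte markers, among them Adipoq (-1.19), Plin1 (-1.06) and Cfd (-3.63), and their part in the Rbp4 value was not tested. With all libraries its value was -0.50 (SE 0.79, adjusted p = 0.737, limma). Rbp7 had -1.13 (SE 0.59, adjusted p = 0.494, limma) with all libraries and -1.65 (SE 0.41, adjusted p = 0.0554, limma) without ND replicate 1. The Rbp4 value turned to 0.085 without ND replicate 2. With the transcript length trend removed it was 0.24, and that of Rbp7 was -0.028 (SE 1.24, adjusted p = 0.991, limma). Without ND replicate 1 and HFD replicate 2 together, the Rbp4 value was -1.39 at an adjusted p of 0.0561 (limma).

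Dhrs3 had 46.5, 144 and 146 FPKM in the ND group, all below the HFD libraries. Its log2 fold change was 0.90 (SE 0.52, adjusted p = 0.494, limma) with all libraries and 0.36 (adjusted p = 0.261, limma) without ND replicate 1. The value for Adh1 went from 1.51 (SE 1.08, adjusted p = 0.514, limma) to 0.22 (adjusted p = 0.270, limma) on the same step. For both enzymes most of the size of the fold change therefore went with that library.

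Aldh1a1 had 79.5, 177 and 160 FPKM in the ND group, its highest group mean, and a log2 fold change of -0.76 (adjusted p = 0.501, limma) with all libraries. Without ND replicate 1 it was -1.12 (adjusted p = 0.107, limma), and with HFD replicate 2 also left out it was -1.48 (SE 0.14, adjusted p = 0.0204, limma) and called, as were 6.4% of all genes tested. HFD replicate 2, which carried some of the epididymis markers, was the HFD library with the highest Aldh1a1. Rdh10 had 4.60, 5.66 and 5.81 FPKM in the ND group, all above the HFD group, and a log2 fold change of -0.33 (adjusted p = 0.561, limma), or -0.42 (adjusted p = 0.190, limma) without ND replicate 1. Macrophage markers were higher in the HFD group in 10 of 10 genes, 4 of them called (limma, 10 at an unadjusted p under 0.05). Progenitor and fibroblast markers were higher in 8 of 8 genes, 0 of them called (limma, 2 at an unadjusted p under 0.05), and without ND replicate 1, which had 86.9 FPKM of them against 881 and 1052 in the other ND libraries, 5 were higher and 3 lower, and 4 were called higher. Adipocyte markers, of which 4 of 9 were lower and 1 was called with all libraries, were lower in 8 of 9 without it, with 6 called lower. The part of all these cells in these values was not tested.

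**Figure D4:**
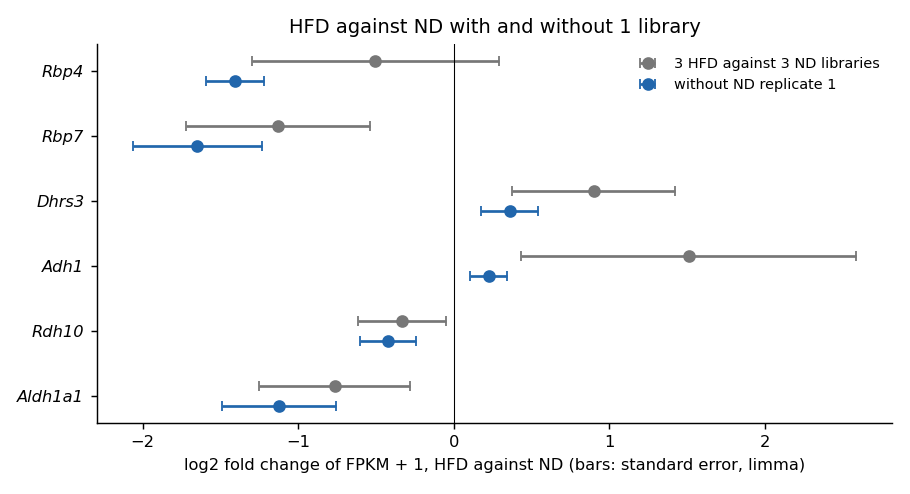
Log2 fold changes of FPKM + 1 for HFD against ND (horizontal axis) of the 6 members tested, with limma standard errors as bars, in all 6 libraries (grey) and without ND replicate 1 (blue). Leaving out this library moves Rbp4 from -0.50 to -1.40 and Adh1 from 1.51 to 0.22 and shortens the bars of all 6.

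The receptor Stra6 was close to the detection limit in most libraries. It had 1.66, 0.0231 and 1.18 FPKM in ND replicates 1 to 3, 0.241, 0.0194 and 0 in the HFD group, 0.0167, 0.0212 and 0.0422 in the GT group, and 0.0217, 0.0485 and 0 in the TJ group. A single fragment corresponds to about 0.0204 FPKM for its transcript at the median depth, so that 9 of the 12 libraries held only a few fragments at most. The 3 libraries above 0.2 FPKM, ND replicates 1 and 3 and HFD replicate 1, were the 3 with the highest sums of germ cell markers. In addition, 55036 bases of the Stra6 locus (chr9:58063788-58153996) lie within the span of Ccdc33 on the opposite strand, which had 44.0, 0.438 and 5.79 FPKM in the ND group and 1.53, 0.103 and 0 in the HFD group. The library kit is not stated to keep the strand, so reads in shared stretches cannot be told apart, and the part of either in the Stra6 values was not tested.

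Crabp2 (chr3:87948666-87953376) was detected in 6 of the 12 libraries. It had 1.45, 0 and 0.128 FPKM in the ND group, 0.123, 1.46 and 0.140 in the HFD group, 0, 0.120 and 0 in the GT group, and was listed at 0 in all 3 TJ libraries. The 2 libraries above 1 FPKM, ND replicate 1 and HFD replicate 2, were the 2 in which epididymis markers were most abundant in sum (17685 and 1279 FPKM), and the part of this tissue in the Crabp2 value was not tested. A single fragment corresponds to about 0.0676 FPKM, so that the other libraries held a few fragments at most. Every HFD library was above every TJ library, HFD replicates 1 and 3 by these few fragments, and the exact permutation test gave a two-sided p of 0.1 for TJ against HFD, the smallest that 3 libraries against 3 allow. Every HFD library was also above every GT library, with the same p of 0.1 (exact permutation test). GT replicate 2 (0.120 FPKM) differed from HFD replicates 1 and 3 (0.123 and 0.140) by less than a single fragment. These libraries could not be told apart at this depth, while HFD replicate 2 (1.46 FPKM) lay well above all GT libraries. The gene was too low for the limma fit.

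Other genes of the pathway were counted from a list of 69 genes, of which 68 were found in the table. For TJ against HFD, 43 of them were tested, 24 were higher and 19 lower, 8 were called higher and 6 lower, and the median log2 fold change was 0.08. Over all genes tested, 7.41% were called higher and 11.1% lower. The calls were not in 1 direction within the pathway. Among the 5 genes tested for synthesis and hydrolysis of retinyl esters all 5 were higher and 4 were called. These were Lipe, the hormone-sensitive lipase (379 ± 33.8 FPKM in the HFD libraries and 860 ± 269 in the TJ libraries, log2 fold change 1.14), Dgat1, an acyltransferase for triglycerides that also esterifies retinol (0.94), and the carboxylesterases Ces1d (1.45) and Ces1f (1.28), with adjusted p of 0.0278 to 0.0401 (limma). Lipe is also in the adipocyte marker list, of which 8 of 9 genes were higher in the same libraries and 7 were called, and the part of adipocytes in these values was not tested.

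Among the retinol and retinal oxidoreductases 11 were tested, 5 higher and 6 lower, with 1 called higher and 3 called lower. Dhrs9, a short-chain dehydrogenase, had 16.9, 19.0 and 24.5 FPKM in the HFD libraries and 4.29, 0.217 and 3.72 in the TJ libraries, and fell by 2.74 on the log2 scale (adjusted p = 0.0269, limma). Akr1b8, an aldo-keto reductase, and Rdh11, a retinal reductase, fell by 1.33 and 1.02 (adjusted p = 0.0236 and 0.0284, limma). Rdh11 was highest in ND replicates 1 and 3 and HFD replicate 1 (64.2, 22.5 and 15.0 FPKM), the libraries with the most germ cell markers, and these markers were lower in 10 of 10 genes in the TJ group, 0 of them called (limma, 4 at an unadjusted p under 0.05). Their part in the Rdh11 value was not tested. Dhrs4 rose by 0.78 (adjusted p = 0.0347, limma). The carrier receptor gene Stra6l, which encodes a second RBP4 receptor, fell from 6.09 ± 0.412 FPKM (HFD) to 1.70 ± 1.33 (TJ) (log2 fold change -1.53, adjusted p = 0.0387, limma). Cyp2s1, a cytochrome P450 listed under retinoic acid catabolism, fell by 1.42 (adjusted p = 0.0206, limma). Macrophage markers were lower in the same libraries (750 to 2562 FPKM with TJ, 3824 to 5388 with the HFD alone), and their part in these values was not tested.

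Of the receptors and cofactors 10 were tested, 7 higher and 3 lower, with 2 called higher and 0 called lower (limma). Rxrg, a retinoid X receptor, had 4.58, 3.50 and 3.05 FPKM in the HFD libraries and 10.3, 12.1 and 8.92 in the TJ libraries (log2 fold change 1.28, adjusted p = 0.0196, limma). Rarg, a retinoic acid receptor, had 13.6 ± 0.618 FPKM in the HFD libraries and 23.4 ± 1.37 in the TJ libraries (0.74, adjusted p = 0.0228, limma). The part of the adipocyte markers, higher in the same libraries, was not tested for these genes or for Pck1. Among 7 genes known to respond to retinoic acid, Pck1, which encodes the phosphoenolpyruvate carboxykinase of glyceroneogenesis, rose by 2.13 (246 ± 19.9 to 1128 ± 435 FPKM, adjusted p = 0.0196, limma), and Tgm2, a transglutaminase, fell by 0.69 (adjusted p = 0.0361, limma). None of the 14 calls was kept in the fits without HFD replicate 1, 2 or 3 or TJ replicate 1, in which no gene of the table was called. With all 12 libraries in the fit 0 were called as well, and with no filter on low values Akr1b8, Cyp2s1, Rarg, Rxrg and Pck1 were called. Dhrs4 and Tgm2 were not called with the replicate number as a block, and Tgm2 was not called with median-of-ratios scaling, array weights or the length trend removed either. Stra6l was not called with a pseudocount of 0.1, Ces1f was not called with array weights, and Stra6l and Cyp2s1 averaged under 5 FPKM and left the fit with that minimum.

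**Figure D5:**
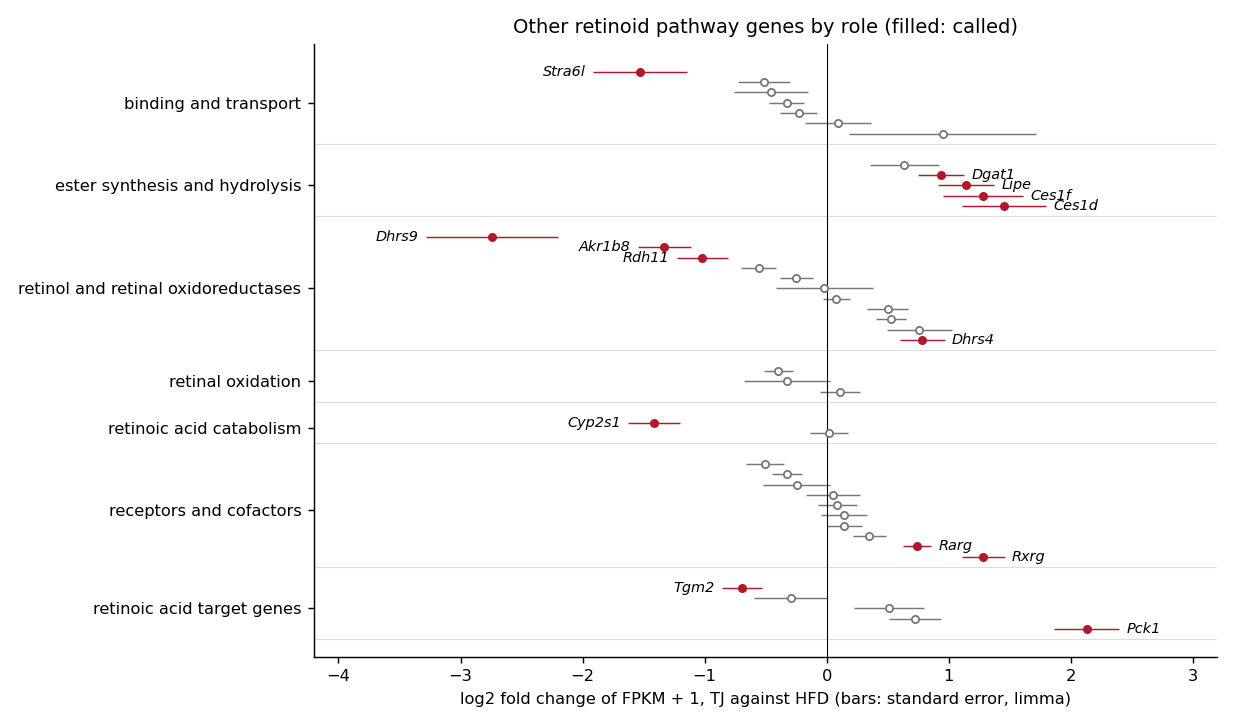
Log2 fold changes of FPKM + 1 for TJ against HFD (horizontal axis) of the 43 other retinoid pathway genes tested, grouped by role, each gene drawn once, with limma standard errors as bars and filled, named points for the 14 called. The 4 called ester genes lie right of 0, and called oxidoreductases lie on both sides, from Dhrs9 at -2.74 to Dhrs4 at 0.78.

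For GT against HFD, 41 pathway genes were tested, 21 higher and 20 lower with a median of 0.04, and 4 were called against 3.63% of all genes tested: Lipe (0.92), Rxrg (1.04) and Pck1 (1.53) rose, and Akr1b8 fell by 1.11, with adjusted p of 0.0338 to 0.0464 (limma). All 4 calls were lost with the replicate number as a block, with no filter on low values, with all 12 libraries in the fit, without the eBayes trend, and without any 1 of the HFD libraries, GT replicate 2 or GT replicate 3. Dhrs9 had the lowest log2 fold change of the list, -1.21, which was not called (adjusted p = 0.109, limma). For TJ against GT, 0 of 43 were called (limma, 13 at an unadjusted p under 0.05) against 0.148% of all genes tested, and the median was 0.09, with Dhrs9 at -1.53 and Ces1f at 0.78 as the lowest and the highest. For HFD against ND, 48 were tested, 27 higher and 21 lower with a median of 0.20, and 2 were called against 1.77% of all genes tested, Stra6l (log2 fold change 2.59, adjusted p = 0.0241, limma) and Dhrs9 (4.18, adjusted p = 0.0074, limma). These are 2 of the genes that fell with TJ relative to the HFD alone, and the comparisons share the HFD libraries. Both calls were lost with the replicate number as a block and without HFD replicate 1, 2 or 3, fits in which no gene of the table was called (limma, 843 to 2239 at an unadjusted p under 0.05), and Stra6l was also lost without ND replicate 2 or 3. Without ND replicate 1 their log2 fold changes were 2.55 and 4.07 (adjusted p = 0.00345 and 0.000904, limma).

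Of the pathway genes, 45 were tested for HFD against ND without ND replicate 1, and 7 were called higher and 6 lower, against 11% and 4.34% of all 13661 genes tested. The median log2 fold change of the 45 was 0.00010, and these fold changes were computed and the genes named after values had been seen. The ester hydrolases Lipe (-0.88), Pnpla2, the adipose triglyceride lipase (-0.99), Ces1d (-2.55) and Ces1f (-1.92) were called lower in the HFD group, as were Pck1 (-3.05) and Ugt1a6a, a glucuronosyltransferase that shares exons with its neighbours and whose reads may be shared with them (-0.75), with adjusted p of 0.000735 to 0.0293 (limma). Besides Stra6l and Dhrs9, those called higher were Fabp5, a fatty acid-binding protein that can also carry retinoic acid (2.17), the aldo-keto reductases Akr1b8 (2.14) and Akr1b10 (0.95), Tgm2 (0.99) and the transcription factor gene Egr1 (1.22), with adjusted p of 0.00234 to 0.0179 (limma). In the same fit 10 of 10 macrophage markers were called higher and 6 of 9 adipocyte markers lower, and their part in these values was not tested.

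Some values of the list came from ND replicate 1. Bco1, which cleaves carotenoids to retinal, was the only gene of its role to be tested, with a log2 fold change of -1.54 (adjusted p = 0.509, limma). It had 18.6, 0.0687 and 1.62 FPKM in ND replicates 1 to 3 and 0.631, 0.217 and 0.129 in the HFD libraries, and without ND replicate 1 its mean was too low for the test. Lcn5, a retinoid-binding lipocalin of the epididymis, had the lowest value, -4.43 (adjusted p = 0.496, limma), from 2111 FPKM in ND replicate 1, and likewise dropped out of the test without it.

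Across libraries the 2 binding proteins had similar profiles. Rbp4 and Rbp7 had a Pearson r of log2(FPKM + 1) of 0.86 over the 12 libraries and 0.93 over the 11 without ND replicate 1, as a description, since the points share the group structure and the depth of each library. Adh1 and Dhrs3 had 0.92 over the 12 and 0.51 over the 11. Among 10094 genes that averaged 5 FPKM or more, the closest to Rbp4 were Phyh, Nnat and Cib2 (r from 0.984 to 0.985), and those closest to Rbp7 were Echdc3, Retn and Npdc1 (0.956 to 0.978). Phyh for Rbp4, and Echdc3 and Npdc1 for Rbp7, were also among the closest 3 without ND replicate 1.

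The enzymes gave other neighbours. Kdsr, Upf2 and Slc44a3 were closest to Aldh1a1 (r from 0.862 to 0.889), and Kcmf1, Tdrd3 and Rif1 to Rdh10 (0.803 to 0.897). Tsnax, Sumo2 and Cxcl12 were closest to Adh1 (0.989 to 0.991) and Mrap, Hspg2 and Hars to Dhrs3 (0.984 to 0.988), and none of these 6 was among the closest 3 without ND replicate 1. Ankrd61, Pdilt and Best1 were closest to Stra6, and none of them was among the closest 3 without ND replicate 1. The epididymal genes Defb40, Defb2 and Spink10 were closest to Crabp2 (r from 0.983 to 0.986), for which Defb40 was also among the closest 3 without ND replicate 1.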

How the data were processed

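Libraries were made from eWAT RNA with the Illumina TruSeq RNA kit. The authors deposited a table of FPKM values, computed with Cufflinks 2.1.1 after masking noncoding regions, with corrections for multireads and fragment bias. The submitters' processing notes also name CASAVA 1.8.2 and STAR 2.4.0. The genome build was not named in the sources used here. The study's methods give an Ensembl release and a human genome, although the identifiers are mouse. The members and gene lists were chosen with earlier results of these data known.

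The main test was limma 3.58.1 (R 4.3.3; lmFit, eBayes with a trend) on log2(FPKM + 1), which understates changes of low genes, in the 6 libraries compared and over genes that averaged 1 FPKM or more. Genes were called at a Benjamini-Hochberg adjusted p under 0.05 with a fold change of 1.5 or more. The study's count test was not used, since the values are FPKM. Exact permutation tests were run in Python 3.11.15 with numpy 2.4.6. Each library was taken to be from 1 mouse. The study describes 3 mice for the HFD and TJ groups only, and the same was assumed for the ND and GT groups. GENCODE release 21 named 22671 of the 23474 identifiers. Depth was estimated from the FPKM steps and is approximate. The fit was tested on simulated data. Pathway genes were named where they were called, had the lowest or highest value of the list in a comparison, or were the only gene tested of their role.

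Deviations from the group means correlated at 0.55, 0.34 and 0.12 between HFD and ND libraries of the same number, all over 0.1. However, HFD replicate 3 and ND replicate 2, of different numbers, correlated at 0.63, above all of these. A pairing by number was therefore not shown, and no source names what the numbers share. The block was fitted as an alternative only, and the fits without ND replicate 1 had no block. The block ended the 2 pathway calls of that comparison. In the other comparisons the numbers did not pair the libraries either.

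Alternatives were a pseudocount of 0.1, no filter, a minimum mean of 5 FPKM, quantile normalization, scaling by median of ratios, a fit of all 12 libraries, the replicate block, eBayes without the trend, array weights, removal of the trend with transcript length, no minimum fold change and each library left out. The fit without ND replicate 1 and HFD replicate 2 together was added after seeing the data.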

Additional observations from a re-analysis of the deposited data

How the results depend on the processing

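With 3 libraries a group, calls rest on few values, and the lists were described by counts. For TJ against HFD, 2 members and 14 pathway genes were called. The counts were 0 and 0 with all 12 libraries in the fit (limma, with an adjusted p of 0.232 for Rbp4 and 0.0743 for Rbp7), 1 (Rbp4) and 5 with no filter, and 0 to 2 and 0 to 17 with 1 library left out. For HFD against ND (0 and 2) the pathway count was 6 with all 12 libraries, 1 at a mean of at least 5 FPKM and 0 with the replicate block. The counts were 3 (Rbp4, Rbp7 and Aldh1a1) and 26 with array weights, whose fit did not fully converge and called 42% of all genes. They were 1 and 7 without ND replicate 1 and HFD replicate 2 (6.4% of all genes), and 0 to 1 and 0 to 13 with 1 library left out, the highest without ND replicate 1. For GT against HFD (1 and 4) both counts were 0 with no filter, with all 12 libraries and with the replicate block, the pathway count was 0 without the eBayes trend, the counts were 2 and 9 with array weights (12.4% of all genes), 2 members were called with the length trend removed, and the ranges were 0 to 1 and 0 to 8 with 1 library left out. For TJ against GT (0 and 0) array weights gave 2 and 8 (13.6% of all genes). In the other settings these counts were within 1.5 times the main ones, and the replicate block changed no other member call. The cause of these differences was not tested. In all 17 alternatives Rbp4 stayed at 1.30 to 1.80 and Rbp7 at 2.15 to 2.90 in TJ against HFD.

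Among the fold changes of the 6 members, signs turned only for values that were not called. With 1 library left out, Rdh10 in TJ against HFD ranged from -0.038 (without HFD replicate 2) to 0.17, Rbp4 in HFD against ND from -1.40 to 0.085 (without ND replicate 2), Aldh1a1 in GT against HFD from -0.063 (without HFD replicate 1) to 0.52, and Aldh1a1 in TJ against GT from -0.0021 (without GT replicate 1) to 0.41. Rbp4 in HFD against ND was 0.24 with the length trend removed. With quantile normalization Rdh10 in GT against HFD was 0.020 and Dhrs3 in TJ against GT was -0.011. In TJ against HFD, 949 genes were called higher and 1417 lower with the deposited values, and 1285 and 1084 with median-of-ratios scaling, 1543 and 1151 with quantile normalization and 1467 and 933 with the length trend removed, and the median of all genes moved from -0.14 to -0.01, 0.03 and 0.05. In GT against HFD, 233 and 231 became 400 and 145, 405 and 162, and 479 and 146. Stra6 and Crabp2 were limited by depth.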

Other observations

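Several retinoid genes that are prominent elsewhere stayed under 1 FPKM in all of these libraries. Lrat, the main retinol esterifying enzyme of liver and eye, and Rdh8 and Sdr16c5, both retinoid dehydrogenases, were listed at 0 in all 12 libraries, and Rbp3, a retinoid carrier of the retina, was listed at 0 in 11. A 0 in an FPKM table can also be a failed estimate. Ttr, which binds RBP4 in plasma, was between 0 and 0.965 FPKM. Cyp26a1, a retinoic acid hydroxylase, reached at most 0.369 FPKM, in ND replicate 1. These genes were chosen after their values were seen.

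Some pathway genes were highest in ND replicate 1, the library with germ cell and epididymis markers. Stra8, a retinoic acid target of germ cells, had 12.4 FPKM there, 1.46 in ND replicate 3 and at most 0.407 in the other libraries. Crabp1 had 9.71 FPKM there, 3.37 in ND replicate 3 and at most 0.718 elsewhere. Whether these levels belong to the tissues of those markers was not tested.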
